A study of Mus musculus with 2 samples.

Results

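*Gata1*, *Gata2*, *Mitf*, *Spi1*, *Cebpa* and *Runx1* encode transcription factors that direct blood progenitors into the mast cell, erythroid and myeloid lineages. They were taken by name, with no threshold on their values, and all 6 were among the 11691 genes of the table. Their levels were read in cells high and low in *Cpa3*, the gene of mast cell carboxypeptidase A, in pairs within single cells and between embryo explants (Em-Ex) and yolk sac explants (YS-Ex). Both kinds of explant were made from C57/BL6 mouse concepti at E8.5, with 5 to 7 somite pairs, and pooled concepti gave 1 library each. Explants grew for 9 to 10 days with SCF, IL-3 and FLT3 ligand, each at 100.0 ng/ml, and CD31+CD45+c-Kit+CD41- cells were then sorted and captured in droplets. With 1 library per condition, the library and the tissue of origin cannot be told apart, no test was run, and every 95% interval given here in parentheses covers counting error only.

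Lineage choice in blood cells depends on the balance of such factors. GATA1 drives erythroid, megakaryocyte, eosinophil and mast cell genes, GATA2 acts in stem cells and mast cells, and MITF, a basic helix-loop-helix leucine zipper factor also known from melanocytes, is needed for mast cell maturation. PU.1, the ETS factor encoded by *Spi1*, serves myeloid and lymphoid cells, C/EBPα directs granulocyte and monocyte formation, and RUNX1 is the DNA-binding part of core-binding factor, needed for blood cells to emerge from endothelium. GATA1 and PU.1 are textbook antagonists, although mast cells are known to use GATA factors, MITF and PU.1 together.

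In the GRCm38 annotation, *Gata1* lies at chrX:7959260-7978071 and *Gata2* at chr6:88193891-88207032. *Mitf* lies at chr6:97807052-98021349, *Spi1* at chr2:91082390-91115756, *Cebpa* at chr7:35119293-35121928 and *Runx1* at chr16:92601466-92826149. All 6 are protein-coding genes, *Gata1* and *Runx1* on the minus strand and the others on the plus strand. RefSeq promoter windows on GRCm38.p6, running from 250 bases before a start site to 50 bases after it, were found for 5 of the 6 genes, 9 windows in all, and *Spi1* was not among them. Both strands were searched for the GATA box (AGATAA or TGATAA or AGATAG or TGATAG), the PU.1 motif AGGAAGT, the E-box (CACGTG or CATGTG), the RUNX motif TGTGGT and the C/EBP motif TTGCGCAA. Shown are 5 of these windows, from the genes that differed most between *Cpa3* classes of Em-Ex or between libraries over all cells, in lower case and 5′ to 3′ along the gene, with matches in capitals. For *Gata2* this is 1 of 2 windows, and for *Mitf* it is the 1 of 3 with the most matches, where the others held 1 each. No match overlapped another.
Gata2, chr6:88193641-88193940, plus strand: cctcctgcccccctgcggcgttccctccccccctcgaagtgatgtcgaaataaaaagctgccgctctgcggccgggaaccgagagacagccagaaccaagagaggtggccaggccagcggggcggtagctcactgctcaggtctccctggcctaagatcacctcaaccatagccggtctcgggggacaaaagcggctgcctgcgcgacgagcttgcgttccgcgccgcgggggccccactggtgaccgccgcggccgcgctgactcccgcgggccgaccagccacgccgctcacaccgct
Mitf, chr6:97991533-97991832, plus strand: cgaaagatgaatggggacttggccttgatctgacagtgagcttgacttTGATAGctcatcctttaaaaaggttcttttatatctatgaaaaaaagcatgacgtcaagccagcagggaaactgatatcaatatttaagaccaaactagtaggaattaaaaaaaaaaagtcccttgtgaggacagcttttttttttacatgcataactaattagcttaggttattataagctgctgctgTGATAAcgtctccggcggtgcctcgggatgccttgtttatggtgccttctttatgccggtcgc
Cebpa, chr7:35119043-35119342, plus strand: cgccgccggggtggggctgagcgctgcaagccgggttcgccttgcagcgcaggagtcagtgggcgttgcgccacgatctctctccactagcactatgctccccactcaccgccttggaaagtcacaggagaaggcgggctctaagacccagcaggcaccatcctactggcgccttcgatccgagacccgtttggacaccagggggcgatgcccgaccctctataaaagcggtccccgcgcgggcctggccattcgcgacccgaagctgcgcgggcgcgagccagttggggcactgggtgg
Runx1, chr16:92826025-92826324, minus strand: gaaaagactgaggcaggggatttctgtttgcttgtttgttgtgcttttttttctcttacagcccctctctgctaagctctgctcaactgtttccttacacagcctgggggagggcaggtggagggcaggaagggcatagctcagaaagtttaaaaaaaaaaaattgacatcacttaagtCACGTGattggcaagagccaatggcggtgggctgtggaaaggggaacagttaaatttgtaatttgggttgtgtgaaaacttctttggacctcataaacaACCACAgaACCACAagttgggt
Runx1, chr16:92697280-92697579, minus strand: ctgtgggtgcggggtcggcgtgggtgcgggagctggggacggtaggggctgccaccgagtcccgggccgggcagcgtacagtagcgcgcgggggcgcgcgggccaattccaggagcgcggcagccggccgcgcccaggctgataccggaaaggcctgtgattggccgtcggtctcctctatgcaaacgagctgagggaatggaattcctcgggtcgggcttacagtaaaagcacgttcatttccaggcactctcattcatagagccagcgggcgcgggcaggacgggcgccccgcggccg

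The window shown for *Mitf* held 2 GATA boxes, TGATAG at bases 49 to 54 and TGATAA at bases 238 to 243, counted from its 5′ end. A GATA box stood in 29.8% of the 32851 promoter windows of the table, so a match is common. The first *Runx1* window held the E-box CACGTG at bases 180 to 185 and the RUNX motif 2 times on the opposite strand (printed as ACCACA, at bases 279 to 284 and 287 to 292), motifs found in 20.4% and 16.8% of all windows. None of the searched letters occurred in the windows of *Gata2* and *Cebpa* or in the other *Runx1* window. The 2 remaining *Mitf* windows held 1 match each, a GATA box and a RUNX motif. The UMIs were counted per gene, so transcripts from different start sites of *Mitf*, *Gata2* or *Runx1* were not told apart.

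After the filter on cells, 3071 Em-Ex cells with 42752370 UMIs and 2087 YS-Ex cells with 27031627 UMIs were left, with medians of 12341 and 11729 UMIs per cell. A UMI, or unique molecular identifier, stands for 1 captured transcript, and a level is given in CPM, the UMIs of a gene per 1000000 UMIs of the group of cells. A cell was called Cpa3-high with 40 or more *Cpa3* UMIs per 10000 of its UMIs, which is a range of a measured level and not a cell type. By this limit 2200 Em-Ex cells (71.6%) and 1946 YS-Ex cells (93.2%) were Cpa3-high, and 284 Em-Ex and 87 YS-Ex cells lay between 30 and 50. Of the barcodes, 35 occurred in both libraries, and 33 Em-Ex and 32 YS-Ex cells carried one, 18 and 14 of them Cpa3-low. The 10 genes of mast cell function, among them *Kit* (the SCF receptor), *Hdc* (histamine synthesis) and *Tpsb2* (a tryptase), were all above 0 and together stood at 30153 CPM in Cpa3-high and 4902 CPM in Cpa3-low cells of Em-Ex, and at 30078 and 10444 CPM in YS-Ex.

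In Em-Ex, Cpa3-high cells had more *Gata2*, *Mitf* and *Gata1* than Cpa3-low cells, less *Spi1* and *Runx1* and almost no *Cebpa*. *Gata2* stood at 547 CPM (538–555) in Cpa3-high and 154 CPM (148–160.4) in Cpa3-low cells, a ratio of 3.55 (3.40–3.71). *Mitf* stood at 40.4 CPM (38.0–42.8) against 12.6 CPM (10.8–14.5), a ratio of 3.21 (2.76–3.77). For *Gata1* the levels were 69.7 CPM (66.6–72.8) and 25.1 CPM (22.7–27.7), with a ratio of 2.77 (2.49–3.10). These 3 genes lay on the same side, each with intervals that did not overlap. Mast cells are known to use PU.1 as well, and *Spi1* lay on the other side.

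The other genes, *Spi1*, *Cebpa* and *Runx1*, lay on the other side. *Spi1* was at 119 CPM (115–123) in Cpa3-high and 177 CPM (171–184) in Cpa3-low cells of Em-Ex, a ratio of 0.668 (0.635–0.703), so *Spi1* remained well above 0 in Cpa3-high cells. *Cebpa* had 14 UMIs in the 2200 Cpa3-high cells (0.511 CPM, 0.280–0.858) and 226 UMIs in the 871 Cpa3-low cells (14.7 CPM, 12.8–16.7), a level 28.8-fold (16.8–53.4) higher in Cpa3-low cells. *Runx1* had 54.7 CPM (51.9–57.5) in Cpa3-high and 72.8 CPM (68.6–77.2) in Cpa3-low cells, the ratio being 0.751 (0.695–0.812). Of the 6 genes, 4 passed 2-fold (3 higher in Cpa3-high cells and 1 lower), where 21.3% of 7246 genes with at least 10 CPM in either class did (7.58% higher and 13.7% lower). The median log2 ratio was 0.53 over the 6 genes and -0.24 over all genes.

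The same order held in YS-Ex for the GATA factors, *Mitf* and *Spi1*, with ratios nearer to 1, while *Runx1* lay the other way. *Gata1* stood at 69.3 CPM (66.1–72.6) in Cpa3-high and 33.0 CPM (25.1–42.6) in Cpa3-low cells, a ratio of 2.10 (1.62–2.77). *Gata2* had 725 CPM (714–735) in the former and 467 CPM (436–499.9) in the latter, with a ratio of 1.55 (1.45–1.66), and *Mitf* had 55.0 CPM (52.1–58.0) against 33.0 CPM (25.1–42.6), a ratio of 1.67 (1.28–2.20). For *Spi1* the levels were 90.8 CPM (87.2–94.6) and 129 CPM (113–146), a ratio of 0.706 (0.616–0.812). *Runx1* was at 182 CPM (177–187) in Cpa3-high and 144 CPM (127–162) in Cpa3-low cells, a ratio of 1.26 (1.11–1.44). Of the 5 genes with at least 10 CPM, 1 (*Gata1*) passed 2-fold, where 10.7% of 7536 genes did (2.24% higher and 8.43% lower). That call was lost at a *Cpa3* limit of 80, with a mitochondrial limit of 10%, with means over cells and without cells high in markers of other lineages, and 3 genes passed at a limit of 20. The median log2 ratio was 0.63 over these genes and -0.13 over all genes.

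**Figure D1:**
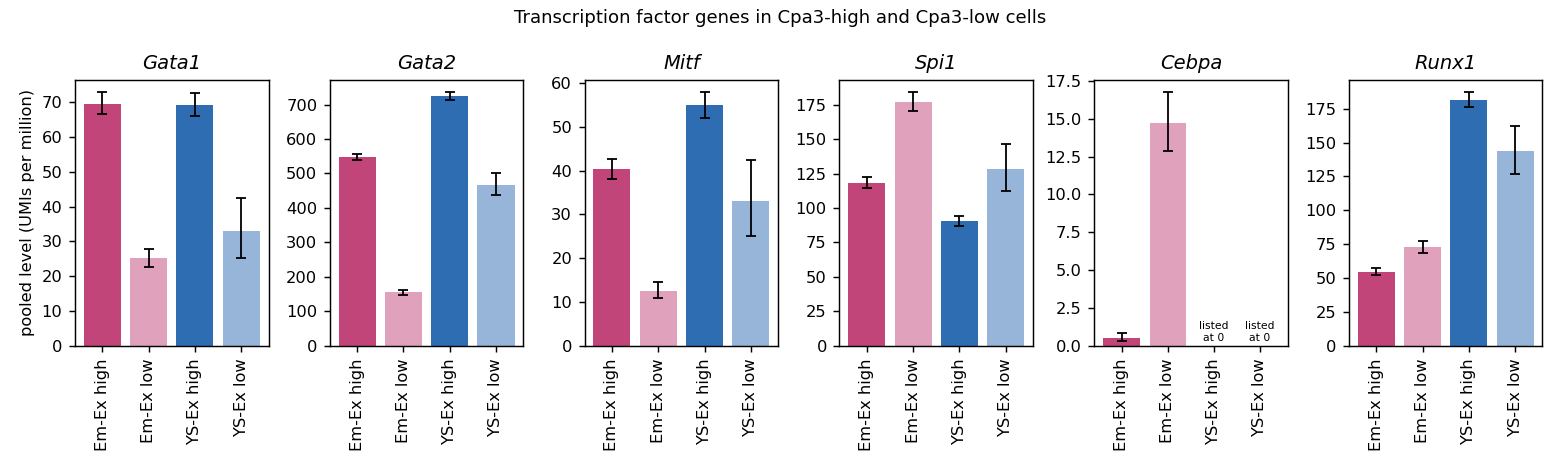
Pooled level in UMIs per 1000000 (y axis) of each gene in Cpa3-high and Cpa3-low cells of both libraries (x axis), with exact Poisson 95% intervals as error bars and a separate linear scale for each gene. *Gata1*, *Gata2* and *Mitf* were higher and *Spi1* lower in Cpa3-high cells of both libraries, and *Runx1* was lower in Em-Ex (54.7 against 72.8 CPM) and higher in YS-Ex (182 against 144 CPM).

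*Cebpa* was listed at 0 throughout YS-Ex. In each library of the table a gene had UMIs in at least 30 barcodes or in none, so a gene listed at 0 can have had UMIs in up to 29 of the 3037 YS-Ex barcodes (0.955%), and no ratio was formed. In Em-Ex, 148 cells (4.82%, 4.09–5.64%) had a *Cebpa* UMI, 134 of them Cpa3-low. The 871 Cpa3-low cells of Em-Ex were deeper than the Cpa3-high cells, with medians of 16935 and 11245.5 UMIs, and in YS-Ex they were shallower, with 10227 and 11809 UMIs.

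For that reason each cell was also thinned to 3000 UMIs, a depth that every cell reached. At this depth *Gata2* was found in 78.8% (77.0–80.5%) of Cpa3-high and 30.1% (27.0–33.2%) of Cpa3-low cells in Em-Ex, against 97.2% and 53.8% unthinned. *Gata1* was found in 18.5% (16.9–20.1%) and 6.08% (4.59–7.88%), and *Mitf* in 11.4% (10.1–12.8%) and 3.56% (2.43–5.01%). *Spi1* was found in 30.2% (28.3–32.1%) of Cpa3-high and 40.8% (37.5–44.1%) of Cpa3-low cells. The shares of *Runx1*, 15.4% (13.9–16.9%) and 17.1% (14.7–19.8%), overlapped in their intervals. In YS-Ex *Gata2* was found in 86.4% (84.8–87.9%) and 64.5% (56.0–72.4%) of the cells, and *Gata1* in 17.8% (16.2–19.6%) and 7.80% (3.96–13.5%). The intervals overlapped for *Runx1*, at 33.5% (31.4–35.6%) and 24.8% (17.9–32.8%), for *Mitf*, at 15.5% (13.9–17.2%) and 9.93% (5.54–16.1%), and for *Spi1*, at 25.03% (23.1–27.0%) and 29.1% (21.7–37.3%).

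Free RNA gives UMIs in cells that do not make a transcript, so the shares were set beside those in cells with other markers. Among 165 Cpa3-low Em-Ex cells high in granule genes, thinned to 3000 UMIs, *Gata2* was found in 6.06% (2.94–10.9%), *Gata1* in 0.606% (0.0153–3.33%) and *Mitf* in 0 of 165 cells, which allows up to 2.21%. Unthinned, at a median depth of 23967 UMIs, 50, 10 and 15 of the 165 cells had *Gata2*, *Gata1* and *Mitf*. Among 22 cells high in macrophage genes, thinned alike, *Gata1* was found in 2 (9.09%, 1.12–29.2%) and *Mitf* in 3 (13.6%, 2.91–34.9%), and among 17 cells high in stromal genes in 1 each (5.88%, 0.149–28.7%). *Spi1* was found in 0 of these 17 stromal cells, which allows up to 19.5% (1 of 17 unthinned), and in 2 of 13 cells high in erythroid genes (15.4%, 1.92–45.4%). In Cpa3-high cells *Cebpa* was found in 2 of 2200 cells (0.0909%, 0.0110–0.328%), and the part of free RNA in it was not tested.

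The limit of 40 *Cpa3* UMIs per 10000 did not lie where the GATA factors changed. In Em-Ex, 538 cells had under 5 and 333 had 5 to 40 *Cpa3* UMIs per 10000. *Gata2* stood at 20.8 CPM (18.1–23.7) in the former and 454 CPM (435–474) in the latter, a ratio of 21.9 (19.0–25.2), and then at 519, 557 and 564 CPM in cells with 40 to 80, 80 to 160 and 160 or more. *Mitf* went from 3.29 CPM (2.29–4.57) to 33.4 CPM (28.4–39.1), a ratio of 10.2 (7.01–15.1), and then stayed between 39.7 and 40.9 CPM. Cells with 5 to 40 were thus nearer to Cpa3-high cells than to the other Cpa3-low cells in both genes.

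*Gata1* was higher in each higher range of *Cpa3* in Em-Ex, at 11.1 CPM (9.18–13.3), 56.7 CPM (50.1–63.9), 65.1 CPM (59.9–70.5), 67.2 CPM (62.5–72.3) and 78.8 CPM (72.6–85.5) in order. *Cebpa* went the other way, from 20.8 CPM (18.1–23.7) below 5 to 1.06 CPM (0.343–2.47) between 5 and 40 and 0.135 CPM (0.00341–0.751) at 160 or more. *Spi1* stood at 196 CPM (188–205) below 5 and at 113 to 135 CPM in the other 4 ranges. From under 5 to 5 to 40, 4 of the 6 genes passed 2-fold in Em-Ex (3 up and 1 down), where 22.3% of 7434 genes did (9.55% up and 12.7% down).

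*Runx1* had its lowest level in the middle of the range. It stood in Em-Ex at 85.3 CPM (79.8–91.0) below 5, 44.6 CPM (38.8–51.1) from 5 to 40, 36.0 CPM (32.2–40.1) from 40 to 80, 51.5 CPM (47.4–56.0) from 80 to 160 and 82.0 CPM (75.7–88.8) at 160 or more. The highest *Cpa3* range was 2.28-fold (1.99–2.61) above the range of 40 to 80, and *Runx1* alone of the 5 genes with at least 10 CPM passed 2-fold there, as 4.83% of 6548 genes did (1.11% up and 3.71% down). In YS-Ex the same step was 1.49-fold (1.35–1.66), from 137 CPM (124–150.5) to 205 CPM (197–213), and 0 of 5 genes passed 2-fold, where 3.84% of 7061 genes did (1.01% up and 2.83% down). With the limit set at 80 in place of 40, the Em-Ex log2 ratio of *Runx1* between Cpa3-high and Cpa3-low cells turned from -0.41 to 0.11, and the number of genes past 2-fold fell from 4 to 1.

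In YS-Ex, 40 cells had under 5 and 101 had 5 to 40 *Cpa3* UMIs per 10000. *Gata2* stood at 156 CPM (127–190.1) in the former and 643 CPM (597–691) in the latter, a ratio of 4.11 (3.33–5.11), and *Spi1* at 194 CPM (161–231) and 91.9 CPM (75.2–111). Of the 40 cells 14 had a *Gata2* UMI, and 1 of them held 33 of the 101 UMIs. At this step 4 of 5 genes passed 2-fold (3 up and 1 down), where 24% of 7897 genes did (9.41% up and 14.6% down). *Gata1* went from 15.5 CPM (7.43–28.5) to 77.9 CPM (73.1–82.9) over the whole range.

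**Figure D2:**
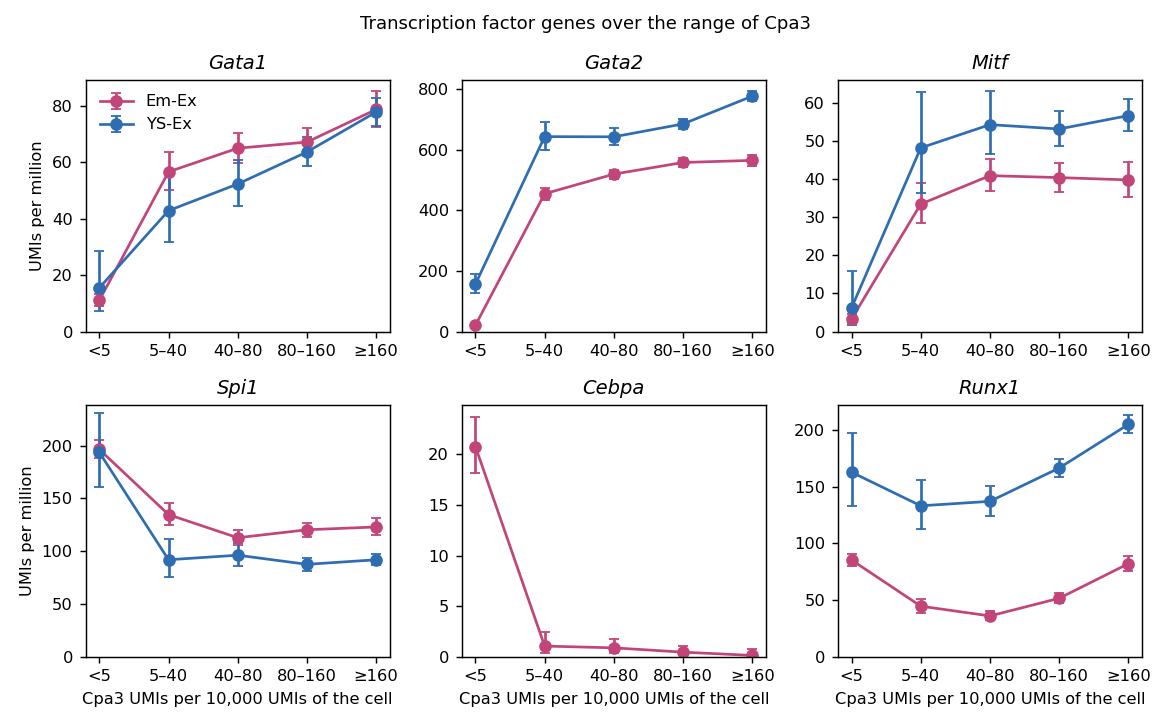
Level of each gene in UMIs per 1000000 (y axis, linear) in 5 ranges of *Cpa3* UMIs per 10000 (x axis), with exact Poisson 95% intervals, Em-Ex in pink and YS-Ex in blue. *Gata2* and *Mitf* step up between the first and the second range (20.8 to 454 CPM for *Gata2* in Em-Ex) and change less after it, while *Runx1* in Em-Ex is lowest at 40 to 80 (36.0 CPM).

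The Cpa3-low cells were next divided by markers of other lineages, a cell going to the list with the largest summed level when that sum reached 10 UMIs per 10000. In Em-Ex, 165 of 871 cells were high in the granule genes *Mpo*, *Prtn3*, *Elane* and *Ctsg*, 22 in macrophage genes, 13 in erythroid genes and 17 in stromal genes, and 654 reached none. In YS-Ex the numbers were 12, 7, 1 and 0 of 141 cells, and 121 reached none. Summed over the class, the 4 granule genes stood at 937 CPM in Cpa3-low and 13.2 CPM in Cpa3-high cells of Em-Ex, all 4 above 0. In YS-Ex the sums were 487 and 2.85 CPM, with *Elane* and *Ctsg* listed at 0. Granule genes were still above Cpa3-high cells in the cells that reached no list, at 149 CPM for Em-Ex and 47.4 CPM for YS-Ex. The erythroid genes stood at 734 and 40.4 CPM in Em-Ex and at 1184 and 69.2 CPM in YS-Ex, where 2 of 5 erythroid genes were listed at 0. The Cpa3-low sums came almost wholly from the erythroid range, whose 13 Em-Ex cells held 10973 of 11288 UMIs and whose 1 YS-Ex cell held 2074 of 2116. Cells that reached no list lay below Cpa3-high cells, with 24.5 CPM for Em-Ex and 28.4 CPM for YS-Ex. The 6 macrophage genes, all above 0, stood at 153 and 66.8 CPM in Em-Ex and at 246 and 24.4 CPM in YS-Ex. The 3 stromal genes in the table summed to 32.9 and 1.83 CPM in Em-Ex and were listed at 0 in YS-Ex. The 3 megakaryocyte genes summed to 62.4 and 37.7 CPM in Em-Ex and to 582 and 26.8 CPM in YS-Ex, with 1 of them at 0 there. Of these megakaryocyte UMIs in Cpa3-low cells, the macrophage range held 495 of 959 for Em-Ex and 752 of 1041 for YS-Ex. Cells that reached no list had 38.1 CPM for Em-Ex and 196 CPM for YS-Ex. Of the lymphoid genes *Il7r* alone was in the table, with 17.3 and 11.4 CPM for Em-Ex and 68.2 and 14.3 CPM for YS-Ex, and of 4 endothelial genes 0 were. Without the 4 ranges, the Em-Ex ratios moved on the log2 scale from 1.83 to 1.39 for *Gata2*, from 1.68 to 1.35 for *Mitf*, from -4.80 to -3.67 for *Cebpa* and from -0.41 to -0.10 for *Runx1*, a comparison added after the values were seen. In YS-Ex those of *Gata2* moved from 0.63 to 0.37 and of *Spi1* from -0.51 to -0.19, and *Gata1*, at 0.88, no longer passed 2-fold.

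The granule range carried *Cebpa*, *Spi1* and *Runx1* and had low levels of *Gata1*, *Gata2* and *Mitf*. *Cebpa* stood at 37.0 CPM (31.3–43.5) in these 165 Em-Ex cells and was found in 75 of them unthinned (45.5%, 37.7–53.4%). *Spi1* stood at 228 CPM (213–243), 1.92-fold (1.78–2.07) of Cpa3-high cells, and *Runx1* at 118 CPM (108–129.7), 2.17-fold (1.95–2.40). *Gata2* was at 20.3 CPM (16.1–25.2), 0.0371 of the Cpa3-high level (0.0294–0.0462), with a UMI in 50 cells unthinned (30.3%, 23.4–37.9%), and *Gata1* at 2.79 CPM (1.39–4.99). *Cpa3* itself was at 0.0165 of its Cpa3-high level (0.0154–0.0176) in these cells, but the classes were cut on *Cpa3*, which fixed a low value. Of the 6 genes, 5 passed 2-fold against Cpa3-high cells, where 34.5% of 7286 genes did (19.6% higher and 14.9% lower).

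In the 13 cells high in erythroid genes *Gata1* was the 1 gene higher than in Cpa3-high cells, at 197 CPM (146–258), 2.82-fold (2.09–3.73) of the Cpa3-high level. *Gata2* was at 42.4 CPM (21.2–75.8) and *Spi1* at 30.8 CPM (13.3–60.7) there, both below Cpa3-high cells, and no *Cebpa* UMI was found, which allows up to 14.2 CPM. Of 5 genes with at least 10 CPM, 4 passed 2-fold (1 higher and 3 lower), as did 45.4% of 7217 genes (23.2% higher and 22.2% lower). The 22 cells high in macrophage genes had *Spi1* at 264 CPM (209–328), *Cebpa* at 26.0 CPM (11.2–51.3) and *Mitf* at 22.8 CPM (9.16–46.9), and 4 of 6 genes passed 2-fold, where 33.5% of 7223 genes did (20.4% higher and 13.1% lower). In the 17 cells high in stromal genes 5 of 5 genes were 2-fold or more lower, on 1 to 8 UMIs each, where 14% of 7771 genes were lower and 37.2% higher (51.2% in all). The ratio intervals of *Mitf* (0.00513–1.13) and *Runx1* (0.0362–1.08) included 1 there. The 654 cells that reached no list had *Gata2* at 209 CPM (200.2–218), *Spi1* at 162 CPM (154–169), *Cebpa* at 6.70 CPM (5.24–8.44) and *Runx1* at 58.7 CPM (54.3–63.5), and 3 of 5 genes (*Gata1*, *Gata2* and *Mitf*) were 2-fold lower than in Cpa3-high cells, where 5.74% of 7140 genes were lower and 10.4% higher (16.1% in all). Granule genes summed to 149 CPM in these cells against 13.2 CPM in Cpa3-high cells, and their part was not tested.

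**Figure D3:**
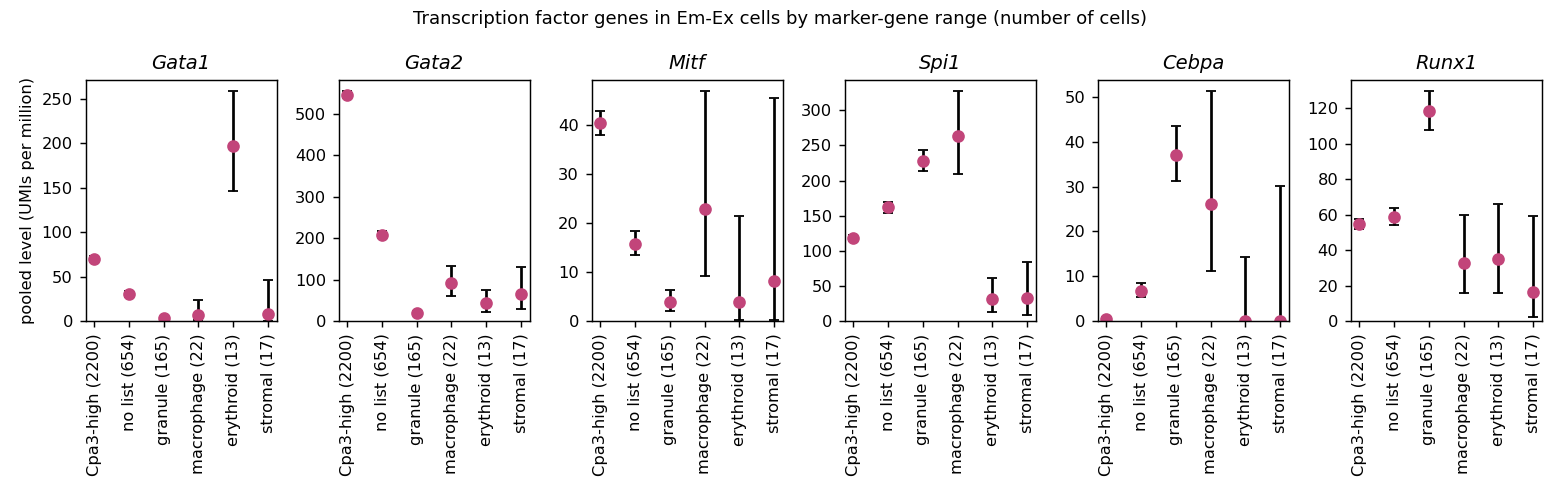
Level of each gene in UMIs per 1000000 (y axis, a separate linear scale for each gene) in Em-Ex cells grouped by *Cpa3* and, below the limit, by marker genes (x axis, number of cells in brackets), with exact Poisson 95% intervals. *Gata1* is highest in the 13 cells high in erythroid genes (197 CPM), *Cebpa* in the 165 cells high in granule genes (37.0 CPM), and *Gata2* and *Mitf* in Cpa3-high cells.

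Whether any 2 of the factors exclude each other was read from pairs of UMIs within cells thinned to 3000 UMIs, as the number of cells with both over the number expected if the genes were independent. At or below 0.5 of the expected number, with at least 5 cells expected, were 2 pairs, both with *Cebpa*. Over the 3071 Em-Ex cells, *Gata2* and *Cebpa* were found together in 4 cells where 22.7 were expected (ratio 0.176). *Gata2* was found in 11.4% (3.20–26.7%) of the 35 cells with *Cebpa* and in 65.6% (63.9–67.3%) of the cells without it. Before thinning, cells with *Cebpa* had a median of 23368 UMIs and cells with *Gata2* one of 11411. *Gata1* and *Cebpa* were found together in 1 cell where 5.23 were expected, and *Mitf* and *Cebpa* in 0 cells where 3.20 were expected. *Spi1* and *Cebpa* were found together in 17 cells where 11.6 were expected (ratio 1.46).

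GATA factors and *Spi1* were found together nearly as often as independence would give. In Em-Ex Cpa3-high cells *Gata2* and *Spi1* were found together in 519 cells where 523 were expected (ratio 0.992), and *Spi1* occurred in 29.9% of the cells with *Gata2* and 31.0% of the cells without it. *Gata1* and *Spi1* were found together in 126 cells where 123 were expected (ratio 1.03). Unthinned, 1580 of the 2200 Cpa3-high cells had UMIs of both *Gata2* and *Spi1*. Over all Em-Ex cells the ratio was 0.925 for *Gata2* with *Spi1* and 0.945 for *Gata1* with *Spi1*, and in YS-Ex 0.968 and 0.872. *Spi1* and *Runx1* shared 118 Em-Ex Cpa3-high cells, 1.16 times the expected number.

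Pairs among *Gata1*, *Gata2* and *Mitf* were found above the expected number over all cells and closer to it within Cpa3-high cells. Over all Em-Ex cells *Gata2* with *Mitf* was at 1.21 and *Gata1* with *Mitf* at 1.31 times that number. Within Cpa3-low cells *Gata2* with *Mitf* reached 2.47 (23 cells where 9.32 were expected) and *Gata1* with *Gata2* 1.82 (29 where 15.9 were expected). Within Cpa3-high cells *Gata2* with *Mitf* was at 1.01 and *Gata1* with *Gata2* at 1.02, and *Gata1* with *Mitf* at 1.13. *Gata2* with *Cebpa* within Em-Ex Cpa3-low cells was at 0.302 (3 cells where 9.93 were expected), and within the granule range, where *Cebpa* was common, at 0.917 (1 cell where 1.09 were expected). No YS-Ex pair without *Cebpa* was at or below 0.5 with at least 5 cells expected, and pairs with *Cebpa* had 0 expected cells there and could not be read.

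**Figure D4:**
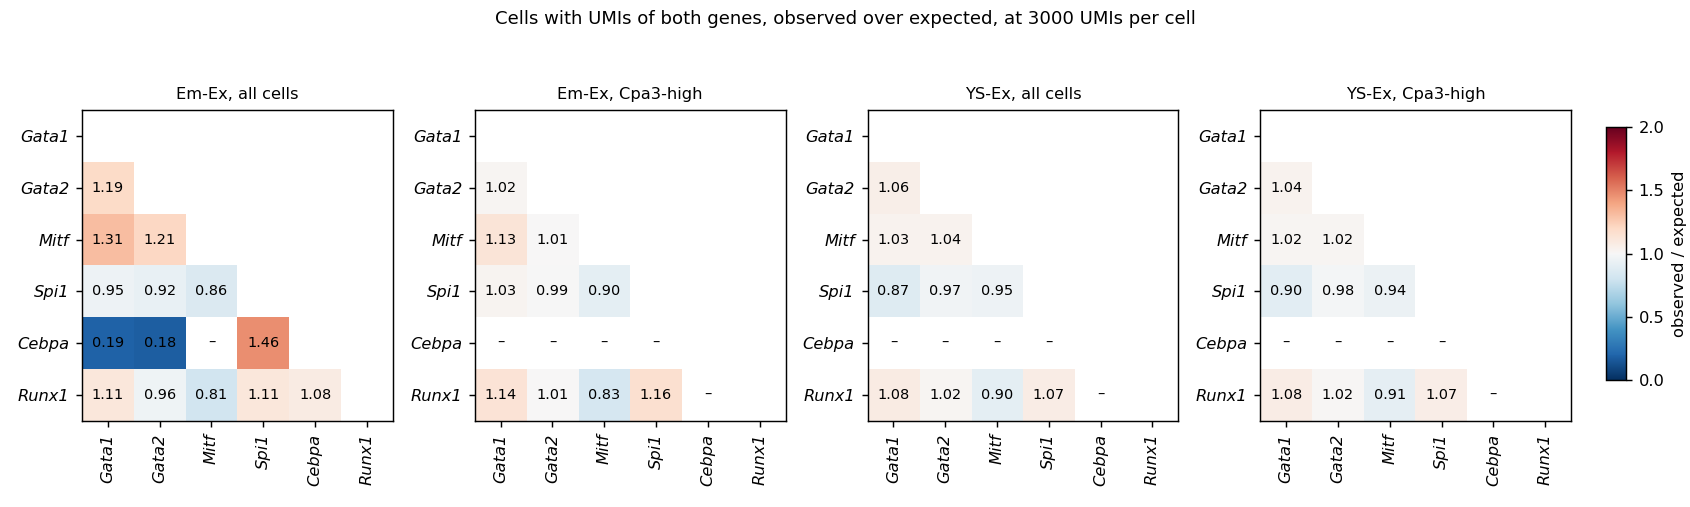
Number of cells with UMIs of both genes of a pair over the number expected under independence, for all cells and Cpa3-high cells of both libraries at 3000 UMIs per cell, with rows and columns the 6 genes and color the ratio from 0 (blue) to 2 (red). Pairs with under 5 expected cells are marked with a dash. The lowest values are those of *Gata2* and *Gata1* with *Cebpa* over all Em-Ex cells, 0.176 and 0.191, and the lowest in Em-Ex Cpa3-high cells is 0.833, for *Mitf* with *Runx1*.

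Between the libraries, *Runx1* differed most among the 5 genes that could be compared over all cells and in Cpa3-high cells, though not in Cpa3-low cells. Over all cells its level was 61.2 CPM (58.9–63.6) for Em-Ex and 179 CPM (174–184) for YS-Ex, 2.93-fold (2.79–3.07) higher in YS-Ex. Within Cpa3-high cells, 54.7 CPM (51.9–57.5) stood against 182 CPM (177–187), 3.32-fold (3.13–3.53) higher in YS-Ex. Within Cpa3-low cells it was 1.98-fold (1.72–2.26) higher in YS-Ex, and without the barcodes found in both libraries it passed 2-fold there too (log2 ratio -1.02). *Runx1* was the one gene past 2-fold over all cells, where 14.9% of 7207 genes passed (9.87% higher in YS-Ex and 5.06% higher in Em-Ex). Within Cpa3-high cells it was again the one gene, where 12% of 6996 genes passed (10.7% higher in YS-Ex and 1.33% higher in Em-Ex).

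The GATA factors, *Mitf* and *Spi1* differed less within Cpa3-high cells than over all cells. Over all cells *Gata1* had 53.6 CPM in Em-Ex against 66.9 CPM in YS-Ex, and in Cpa3-high cells 69.7 against 69.3 CPM, a log2 ratio of 0.01 with a ratio interval of 0.941–1.07. *Gata2* was 1.75-fold (1.71–1.78) higher in YS-Ex over all cells (405 against 708 CPM) and 1.33-fold (1.30–1.35) higher in Cpa3-high cells. *Mitf* was 1.76-fold (1.63–1.90) and 1.36-fold (1.26–1.48) higher in YS-Ex. *Spi1* was higher in Em-Ex, at 139.7 CPM (136–143) against 93.3 CPM (89.7–97.0) over all cells, a ratio of 1.497 (1.43–1.57), and 1.31 (1.24–1.38) in Cpa3-high cells. In Cpa3-low cells *Gata2* was 3.03-fold (2.80–3.28) and *Mitf* 2.63-fold (1.93–3.54) higher in YS-Ex, and these 2 of 5 genes passed 2-fold, where 21.1% of 7709 genes did (15% higher in YS-Ex and 6.12% higher in Em-Ex). The make-up of the class moved with this last difference. Granule genes stood at 937 CPM in Cpa3-low cells of Em-Ex against 487 CPM in those of YS-Ex, mast cell genes at 5541 against 11698 CPM, and 538 of 871 against 40 of 141 cells had under 5 *Cpa3* UMIs per 10000. Within the range of 5 to 40 the levels were nearer, for *Gata2* 454 against 643 CPM and for *Mitf* 33.4 against 48.2 CPM. In the cells that reached no list, *Gata2* was 2.68-fold (2.48–2.91) and *Mitf* 2.37-fold (1.71–3.22) higher in YS-Ex, and with *Runx1* 3 of 5 genes passed 2-fold, where 21.8% of 7653 genes did (14.7% higher in YS-Ex and 7.17% higher in Em-Ex). The 10 mast cell genes differed between these cells too, at 6677 CPM in Em-Ex against 12514 CPM in YS-Ex. Granule genes stood at 149 against 47.4 CPM there, again without *Elane* and *Ctsg* in YS-Ex. The part of either list in the differences was not tested.

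All cells were also clustered on variable genes without the 6 transcription factors, with no correction between libraries. *Cpa3* and the genes that follow it were not kept out. The clusters ran from 0% (cluster 13) and 1.78% (cluster 5) to 99.2% (cluster 3) Cpa3-high cells, so they repeat the *Cpa3* classes in part. Of 13 clusters, 13 groups of 1 library and 1 cluster had at least 30 cells, 8 from Em-Ex and 5 from YS-Ex, and most clusters were nearly all of 1 library. *Runx1* varied widely in both libraries. In Em-Ex its lowest level was 19.8 CPM (15.1–25.5), in cluster 7, and its highest 143 CPM (127–159.7), in cluster 8. In YS-Ex the lowest was 9.47 CPM (3.08–22.1), in cluster 7 again, and the highest 257 CPM (214–306), in cluster 11. Cluster 7 was led by genes of mitosis such as *Cdkn3*, *Ccnb2*, *Cenpa* and *Cdc20*, cluster 8 by the mucosal mast cell protease *Mcpt1*, and cluster 11 by genes such as *Bnip3*, *Egln3* and *Slc2a3* that are known to respond to low oxygen. Cluster 7 held 207 Em-Ex and 35 YS-Ex cells, and 4 and 2 of these carried a barcode found in both libraries. *Gata2* there stood at 531 CPM (506–558) for Em-Ex, beside a median of 520 CPM over the 8 groups of that library. For YS-Ex it had its lowest level there, 555 CPM (493–622) beside a median of 758 CPM over 5 groups, as did *Gata1* and *Mitf*, each at 36.0 CPM (21.7–56.2).

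Of the other proliferative clusters, cluster 6 was low in *Runx1* too and cluster 9 was near the median of its library. Cluster 6, led by *Rrm2* and *Asf1b*, stood at 30.5 CPM (26.9–34.4) in 476 Em-Ex cells, beside an Em-Ex median of 69.9 CPM. Cluster 9, led by histone genes, stood at 127 CPM (117–138) in 207 YS-Ex cells, beside a YS-Ex median of 140 CPM. Cluster 4 of Em-Ex, not led by genes of proliferation, was also low, at 34.8 CPM (30.9–39.2). *Spi1* was lowest in clusters 6 and 9, with 86.0 CPM (79.9–92.5) for cluster 6 and 61.1 CPM (53.8–69.0) for cluster 9. It was highest in cluster 10 (123 Em-Ex cells, led by *S100a9*, *S100a8*, *Spp1* and *Lyz2*), at 256 CPM (231–283), where *Gata2* stood at 277 CPM (251–305) and *Cebpa* at 9.37 CPM (5.12–15.7). Cluster 5 (489 Em-Ex cells, led by *Mpo* and *Prtn3*) had *Gata2* at 29.3 CPM (26.0–32.8), *Gata1* at 4.28 CPM (3.10–5.76), *Mitf* at 2.29 CPM (1.45–3.43), *Cebpa* at 21.5 CPM (18.7–24.6) and *Spi1* at 196 CPM (187–205). Its cells were deep, with a median of 20544 UMIs, and only 17 YS-Ex cells fell in it, 9 of them with a shared barcode.

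**Figure D5:**
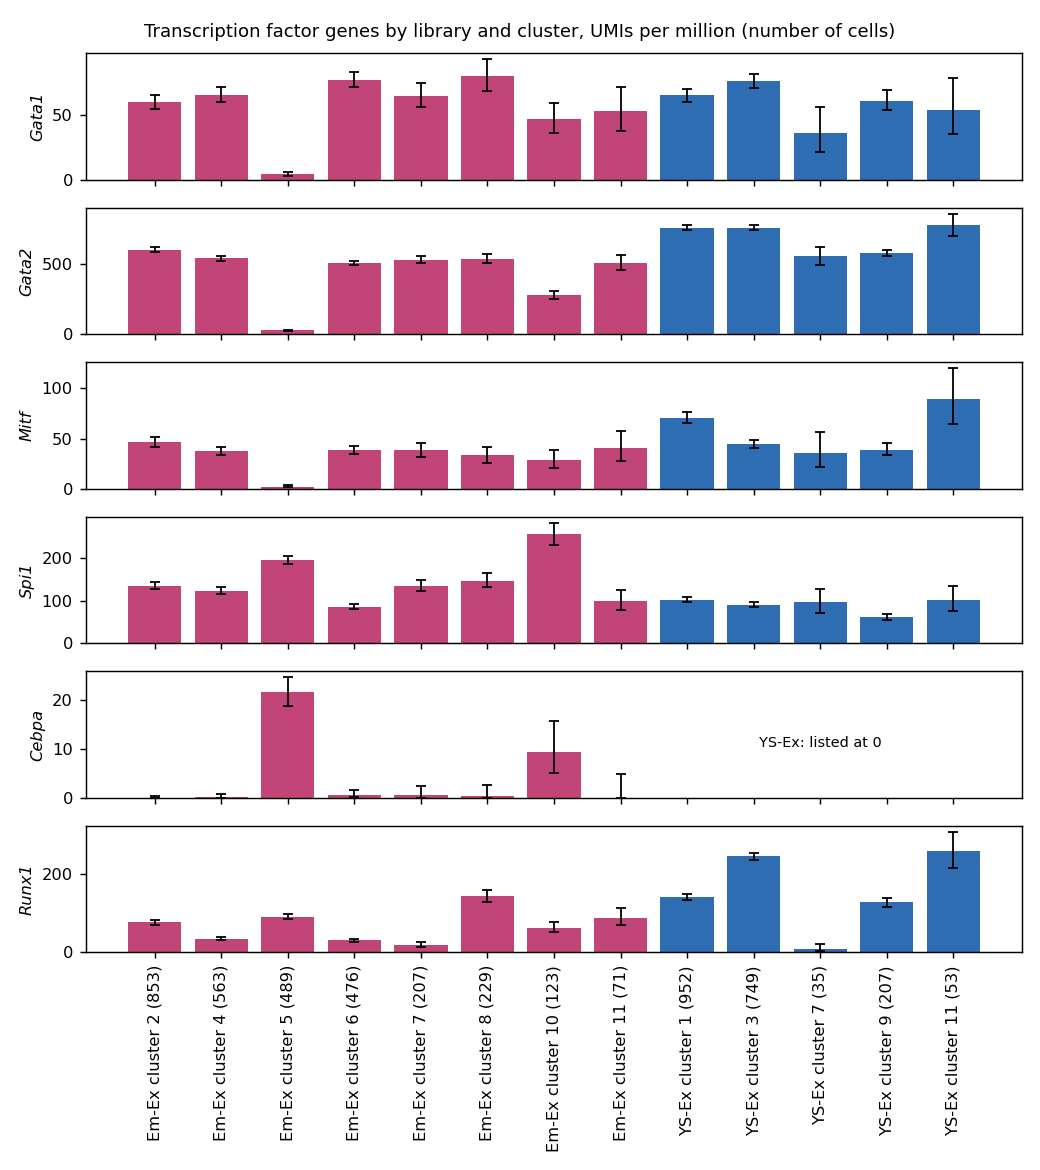
Level of each gene in UMIs per 1000000 (y axes, linear, 1 panel a gene) in the 13 groups of at least 30 cells of 1 library and 1 cluster (x axis, number of cells in brackets), Em-Ex in pink and YS-Ex in blue, with exact Poisson 95% intervals. *Runx1* is lowest in cluster 7 of both libraries (19.8 and 9.47 CPM), and *Gata1*, *Gata2* and *Mitf* are lowest and *Cebpa* highest in cluster 5.

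Across the 13 groups, which share 2 libraries, *Gata2* and *Mitf* followed each other (Pearson's r = 0.97 on log2 levels) as did *Gata1* and *Gata2* (r = 0.94). *Cebpa* was listed at 0 in the YS-Ex groups, and over the 8 groups of Em-Ex alone it ran against *Gata2* (r = -0.89) and with *Spi1* (r = 0.77). Cluster 5 of Em-Ex lay far below all other groups in *Gata1*, *Gata2* and *Mitf* (4.28, 29.3 and 2.29 CPM). In Em-Ex outside clusters 5 and 10, *Gata2* lay between 509 and 600 CPM and *Mitf* between 33.4 and 46.4 CPM. *Cebpa* was at 0.699 CPM or less there. These r values thus rest much on 1 or 2 groups, and none was computed without them. Over the 13 groups *Runx1* had r from -0.09 to 0.13 with the other 5 genes. Within the 8 Em-Ex groups its r was -0.29 with *Gata1*, -0.28 with *Gata2*, -0.29 with *Mitf*, 0.31 with *Spi1* and 0.19 with *Cebpa*. Among 8916 genes, those most like *Gata2* over the groups were *Gna14*, *Neat1*, *Slc30a2*, *Prkcb* and *Slc18a2*, the last a transporter that loads amines into granules (r from 0.98 to 0.99). Those most like *Mitf* were *Csf2rb*, *Lcp2*, *Cd55*, *Prkcb* and *Neat1*, and those most like *Gata1* were *Lpxn*, *Akr1c13*, *Adora3*, *Lpcat2* and *Cyp11a1*. *Ikzf2*, *Pim1*, *Marf1*, *Ogt* and *Dennd4a* were most like *Runx1* (r from 0.89 to 0.96). For *Spi1* they were *Mapkapk3*, *Irf5*, *Shisa5*, *Il10rb* and *Clta*. With finer clusters, 9 of 30 places over the 6 genes were kept, 0 of them among the 5 of *Cebpa*, so most did not stay among the 5 most alike. *Mapkapk3* fell to place 696 for *Spi1*, and *Marf1* and *Dennd4a* to places 121 and 159 for *Runx1*.

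Partners of the 6 factors did not simply go with them. Of 9 GATA partners, 7 had at least 10 CPM in Em-Ex, and between Cpa3-high and Cpa3-low cells 1 was higher by 2-fold and 5 were lower (median log2 ratio -1.78), where 7.58% of all genes compared were higher and 13.7% lower. *Tal1*, whose product binds DNA beside GATA factors, was the 1 that was higher, at 39.3 CPM against 16.0 CPM. *Lmo2*, a bridging protein of the same complex, was lower, at 2.74 CPM against 113 CPM, 41.4-fold. *Gfi1b* and *Nfe2*, factors of erythroid and megakaryocyte cells, were lower too, at 0.986 against 16.4 CPM and 5.04 against 52.8 CPM, and *Lyl1* was at 107 and 129.6 CPM. In YS-Ex, *Lmo2* was at 0.951 CPM in Cpa3-high and 29.6 CPM in Cpa3-low cells, and 0 of 6 GATA partners were higher and 3 lower (median log2 ratio -0.63), where 2.24% of all genes compared were higher and 8.43% lower.

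The partners of the myeloid factors went both ways. *Irf8*, a partner of PU.1 in monocytes, stood at 3.65 CPM in Cpa3-high and 38.1 CPM in Cpa3-low cells of Em-Ex, and at 1.35 and 49.2 CPM in YS-Ex. *Cebpb* was at 13.6 and 28.9 CPM in Em-Ex and at 23.1 and 62.7 CPM in YS-Ex, and *Cebpd* and *Cebpe* were not in the table, nor were *Irf4* and *Spib*. *Jun*, which can bind together with PU.1, was higher in Cpa3-high cells of Em-Ex, at 735 against 267 CPM, and nearer in YS-Ex, at 1019 against 876 CPM. Of the RUNX partners, *Cbfb*, which encodes the other subunit of core-binding factor, was at 54.6 and 56.6 CPM in Em-Ex, *Runx3* at 72.3 and 45.0 CPM, and *Runx2* at 5.88 and 15.1 CPM. Between the libraries, *Cbfb* (54.6 CPM in Em-Ex against 43.7 CPM in YS-Ex) and *Runx3* (72.3 against 104 CPM) lay within 2-fold in Cpa3-high cells. Of the relatives of MITF, 0 of 3 reached 10 CPM in the Cpa3-high or Cpa3-low class of Em-Ex, where their sum was 7.93 CPM in Cpa3-high cells, and in the 22 cells high in macrophage genes the sum was 137 CPM (98.5–185) on 42 UMIs. In YS-Ex 1 of 3 reached it, *Tfe3*, with 11.1 CPM in Cpa3-high and 11.2 CPM in Cpa3-low cells. Over the PU.1, C/EBP and RUNX lists together, 1 gene was 2-fold higher and 3 lower of 8 in Em-Ex, and 0 were higher and 2 lower of 7 in YS-Ex. Over all genes compared, 21.3% passed 2-fold either way in Em-Ex and 10.7% in YS-Ex. The median log2 ratios of the 3 lists in that order were 0.48, -0.86 and -0.05 in Em-Ex and -0.44, -1.17 and 0.05 in YS-Ex.

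Genes known as targets of these factors were read last. All 10 mast cell genes were 2-fold or more higher in Cpa3-high cells of Em-Ex (median log2 ratio 2.23), as were 7 of 10 in YS-Ex (1.43), against -0.24 and -0.13 over all genes, of which 7.58% were higher in Em-Ex and 2.24% in YS-Ex. The classes were cut on *Cpa3*, which is not among the 10, and mast cells are known to express these genes together. *Hdc* was at 2758 against 757 CPM in Em-Ex and 2065 against 1036 CPM in YS-Ex, and *Ms4a2*, a chain of the IgE receptor, at 58.5 against 8.72 CPM and 67.3 against 28.5 CPM. Of the 8 myeloid targets, 6 of 6 with at least 10 CPM were lower in Cpa3-high cells of Em-Ex (median log2 ratio -4.84), as were 4 of 5 in YS-Ex (-4.36), where 13.7% and 8.43% of all genes were lower. *Lyz2*, the lysozyme of myeloid cells, was at 30.6 against 277 CPM in Em-Ex and 7.65 against 733 CPM in YS-Ex. *Kit* in Cpa3-high cells had 339.7 CPM in Em-Ex against 993 CPM in YS-Ex, 2.92-fold higher in YS-Ex, beside the *Runx1* difference of 3.32-fold in the same cells. The sort selected c-Kit+ cells in both cultures, and the part of *Kit* in the *Runx1* difference was not tested.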

How the data were processed

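Sorted cells of both explant types were profiled by droplet single cell RNA-seq, 1 library per condition, and grouped by the sample labels. Per the submitters' processing notes, reads were processed with bcl2fastq 2.19.1.403 and Cell Ranger 2.0.1 on mm10, and the annotation is not given in the sources used here. The authors deposited unnormalized UMI counts, 11691 genes by 6541 barcodes over both libraries (48630888 Em-Ex and 34566242 YS-Ex UMIs), and 0 columns were left unmapped. Cells with 1000 to 5000 genes and at most 5% mitochondrial UMIs (13 genes) were kept, with 4120 to 38114 UMIs per Em-Ex and 3302 to 34107 per YS-Ex cell. No doublet caller was run, and the upper gene limit was the only step against doublets.

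Levels were pooled UMIs per 1000000 with exact Poisson intervals, ratios had exact conditional intervals, log2 ratios a prior count of 0.5, and shares exact Clopper-Pearson intervals, all at 95%. A gene was compared with at least 10 CPM in either group. Clusters came from Leiden (leidenalg 0.10.2, resolution 1, scanpy 1.11.5) on 2000 variable genes, 50 components and 20 neighbors. Python 3.11.15, numpy 2.4.6, scipy 1.17.1 and matplotlib 3.10.9 were used. The intervals were run on simulated Poisson counts without variation between cells or libraries. That run cannot show how they hold under such variation. Named genes were the 6 factors, *Cpa3*, members of the partner, target and marker lists, the 5 genes most like each factor (not given for *Cebpa*, whose YS-Ex levels were at 0) and genes leading a cluster. The 6 genes and the lists were chosen with earlier results of these data known. Alternatives were other filters, scalings, limits, depths and a Leiden resolution of 2.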

Additional observations from a re-analysis of the deposited data

Results flagged for a closer look

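*Runx1* lay in opposite directions in the 2 libraries when Cpa3-high cells were compared with Cpa3-low cells. The ratio was 0.751 (0.695–0.812) in Em-Ex and 1.26 (1.11–1.44) in YS-Ex. The difference between them was not tested, since each condition had 1 library. The Em-Ex direction depended on the *Cpa3* limit. At a limit of 80 the log2 ratio was 0.11 in Em-Ex and 0.43 in YS-Ex, the same direction, against -0.41 in Em-Ex at 40. It was -0.10 without cells of the 4 marker ranges and -0.14 with means over cells. In both libraries *Runx1* rose from the *Cpa3* range of 40 to 80 to that of 160 or more, 2.28-fold in Em-Ex and 1.49-fold in YS-Ex. Below 5 *Cpa3* UMIs per 10000 it stood at 85.3 CPM in 538 Em-Ex cells and at 163 CPM in 40 YS-Ex cells.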

How the results depend on the processing

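The choice of the *Cpa3* limit moved the results most. At a limit of 80, 1 gene in place of 4 passed 2-fold between Cpa3-high and Cpa3-low cells of Em-Ex, and the log2 ratio of *Runx1* turned to 0.11. The Em-Ex log2 ratios of *Gata1*, *Gata2* and *Mitf*, at 1.47, 1.83 and 1.68, were 2.13, 3.16 and 2.75 at a limit of 20 and 0.85, 0.95 and 0.80 at 80. In YS-Ex those of *Gata1*, *Gata2* and *Mitf*, at 1.06, 0.63 and 0.72, were 1.66, 1.28 and 2.06 at a limit of 20 and 0.66, 0.35 and 0.24 at 80, and that of *Spi1*, at -0.51, was -0.80 and -0.26. In YS-Ex, where 1 gene passed, the number was 3 at a limit of 20. It was 0 at a limit of 80, with a mitochondrial limit of 10%, with means over cells and, in the comparison added after the values were seen, without cells of the 4 marker ranges. Pairs at or below 0.5 of the expected number went from 2 to 1 over all Em-Ex cells at 2000 UMIs, where *Gata1* with *Cebpa* had under 5 expected cells. In Em-Ex Cpa3-low cells they went from 1 to 0 at 2000 UMIs and to 3 at 8000 UMIs. At a Leiden resolution of 2, 9 of 30 most like genes were kept. Ratios between libraries kept their direction under every alternative run except that of *Gata1* in Cpa3-high cells, whose log2 ratio of 0.01 became -0.02 with means over cells. Of the gene ratios under an alternative, 137 stayed within the counting interval, 40 lay outside it on the same side of 0 and 1 reversed. Without the barcodes found in both libraries, 4 genes in Em-Ex and 1 in YS-Ex passed 2-fold between *Cpa3* classes, and 1, 1 and 3 between libraries over all, Cpa3-high and Cpa3-low cells, the last against 2 with them. No paired analysis was possible because each condition had 1 library. Depth limits *Cebpa*, with 14 UMIs in Em-Ex Cpa3-high cells, and the 40 YS-Ex cells lowest in *Cpa3*. It also limits the small marker ranges, such as the 17 stromal cells with at most 8 UMIs of any of the genes.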
